A study of Sorghum bicolor with 9 samples.

Results

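The bZIP transcription factors of sorghum (Sorghum bicolor) leaves are described here under 3 levels of water supply. They were chosen by name: a gene belonged where the Swiss-Prot protein name in its deposited description held bZIP, basic leucine zipper, Transcription factor TGA, HBP-1, ABSCISIC ACID-INSENSITIVE 5 or TRAB1. This gave 59 of the 34366 genes of the deposited mRNA table. The names are those of the closest described protein, for 37 members a rice protein and for 16 an Arabidopsis protein, so roles given here come from those plants and not from sorghum. A bZIP domain of the Pfam database was annotated in 50 of the 59, and the other 9 had no Pfam entry. Plants had a normal water supply (control), mild drought or severe drought, with 3 leaf libraries in each group, made by strand-specific sequencing of total RNA. The labels give no cultivar, plant age or length of treatment, and do not say whether libraries came from separate plants. The p-values therefore measure only the spread between these libraries, which may be technical.

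bZIP proteins bind DNA as pairs: a basic region touches motifs with an ACGT core, and a zipper of regularly spaced leucines joins the partners. In drought the hormone abscisic acid is bound by receptors that block type 2C phosphatases. This frees SnRK2 kinases, which phosphorylate bZIP proteins of the abscisic acid type, and these switch on genes of water stress. Other bZIP types are known for other work: TGA factors act with NPR proteins in defence, and membrane-bound or spliced forms act in stress of the endoplasmic reticulum (ER). Factors of the C and S1 types pair with each other and are known from seed storage and from sugar and energy supply.

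The gene table held 27854146 to 41228478 counts per library, of which 20772692 to 38711314 fell on genes of the mRNA table. The first principal component, with 28.7% of the variance, did not follow the water supply. On it, libraries 1 and 2 of severe drought, library 2 of mild drought and library 3 of the control stood apart from the other 5. Control 2 and mild drought 2 had the most genes detected, 29760 and 28676 against at most 25066 elsewhere. Leaf markers (light-harvesting proteins, the small Rubisco subunit and phosphoenolpyruvate carboxylase) summed to 30099.7 to 66363 CPM (counts scaled to the library size) in the control. The sums were 31052 to 48752 CPM in mild and 41734 to 82865 in severe drought, so the 3 ranges overlapped. Gene by gene, 5 of 21 tested leaf markers lay above the control in mild drought (median log2 difference -0.31) and 15 in severe drought (0.31), and 18 lay higher in severe than in mild drought (0.48). The part of this shift in the values of the bZIP genes was not tested. Summed markers of dividing tissue, seed and pollen stayed between 57.1 and 159.6 CPM in every library. These lists were picked by name, so single genes in them are uncertain as markers. In the pollen list Profilin-4 had group means of 64.3 to 86.5 CPM. In the seed list Protein GLUTELIN PRECURSOR ACCUMULATION 3 had group means of 28.8 to 37.7 CPM. In leaf tissue measured in bulk, fewer cells of a type and less RNA per cell cannot be told apart.

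Levels between genes are compared in FPKM, which is per transcript length, as means over the 9 libraries. RISBZ4 (SORBI_3004G059900, chromosome 4, 4803664 to 4806909) had 28.3 FPKM (± 8.76 SD, n = 9), and TGAL6 (SORBI_3006G233500, chromosome 6, 57541249 to 57549389) had 26.0 ± 5.64. They were followed by bZIP23 (SORBI_3004G309600) with 24.1 ± 4.84, bZIP transcription factor 2 (SORBI_3002G162800) with 24 ± 6.25 and TRAB1 (SORBI_3002G225100) with 17.3 ± 1.97 FPKM. The SDs of neighbours in this order overlap, so their order is not settled. These 5 genes held 34.8% of the summed FPKM of all members, and 9 genes held 50% of it. In all, 13 members had a mean of at least 10 FPKM, 21 had 1 to 10, and 25 were under 1.

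**Figure D1:**
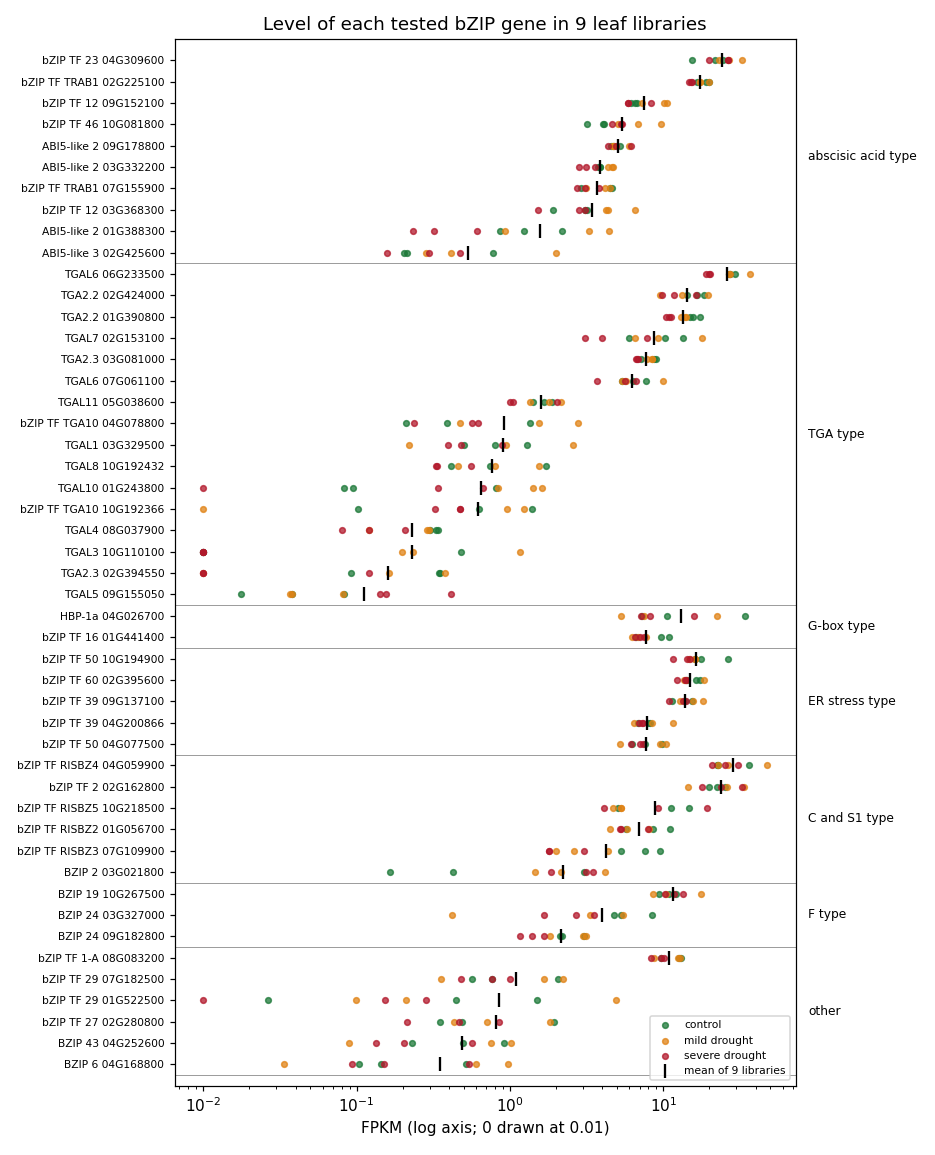
FPKM on a log axis of the 48 tested bZIP genes, with 1 point per library coloured by group and a bar at the mean of 9 libraries; a value of 0 is drawn at 0.01. Labels give the short name and the end of the gene identifier, and lines separate the types; the most abundant genes reached means of 24 to 28.3 FPKM, and most TGA type genes lay under 1.

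The types differed in how their level was spread over genes. All 5 ER stress genes lay between 7.71 and 16.4 FPKM, and all 6 genes of the C and S1 types between 2.21 and 28.3. The lowest of these 6, Basic leucine zipper 2, was placed by the number in its rice name, so its type is uncertain. Of 19 TGA type genes 12 were under 1 FPKM, while TGAL6 alone had 26.0. Genes that share a name also differed. The 4 genes named TRAB1 had 17.3, 3.72, 0.0686 and 0.0291 FPKM, and the pair named TGAL6 had 26.0 and 6.29. Names were shared by 35 of the 59 members, and reads of near-identical copies may have been split in the authors' counting, which is uncertain for these genes. The annotation added a pattern that the name did not use: 14 of the 19 TGA type genes were annotated with the domain that Pfam calls seed dormancy control (DOG1), and no member of another type was. The remaining TGA type genes, the most abundant TGAL6 among them, had no Pfam entry at all, so the annotation does not show whether they have the domain.

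For tests, 48 of the 59 members passed the filter on low counts, and 11 did not. Differences below are log2 values ± SE from a quasi-likelihood test in edgeR over 22080 genes, with p-values adjusted over all of them by the Benjamini-Hochberg method. Levels in groups are in CPM, as values of libraries 1, 2 and 3 or as mean ± SD (n = 3). The adjusted p stayed above 0.05 for all 48 members in each of 4 comparisons, as it did for all 22080 genes (0% called in each). The counts at an unadjusted p under 0.05 are given beside the share of all tested genes. In mild drought against control they were 2 of 48 members (4.17%, against 6.4% of all genes), and in severe drought against control 3 (6.25%, against 8.67%). In severe against mild drought they were 3 (6.25%, against 3.69%), and for both droughts together against control 3 (6.25%, against 8.75%). TGAL3, counted in severe against mild drought, passed the filter only with the mild drought libraries, where it was high. With DESeq2 at an adjusted p under 0.05, the members called were 1 in mild drought (0.91% of all genes called), 1 in severe drought (1.4%), 0 in severe against mild drought (0.0674%) and 2 for both droughts (1.68%). The comparisons with the control share the control libraries, and values in them are set side by side only.

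Over all 48 tested members the median log2 difference was 0.09 in mild and -0.00 in severe drought, beside 0.02 and -0.02 over all genes. Between libraries of a group the members varied with a median SD of 0.366 on the log2 scale, beside 0.458 for all tested genes. Members lay on both sides: 31 of 48 were above 0 in mild drought and 24 in severe drought, and they are described by type. On the scale of FPKM the median over all tested genes itself was shifted (log2 of FPKM + 1). It was -0.23 in severe drought against control, -0.25 against mild drought and -0.11 for both droughts against control. Where a type is counted on that scale, the count above this shift is given beside the count above 0. Counts at an unadjusted p under 0.05 on that scale, for single genes, members or lists, are not corrected for it.

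**Figure D2:**
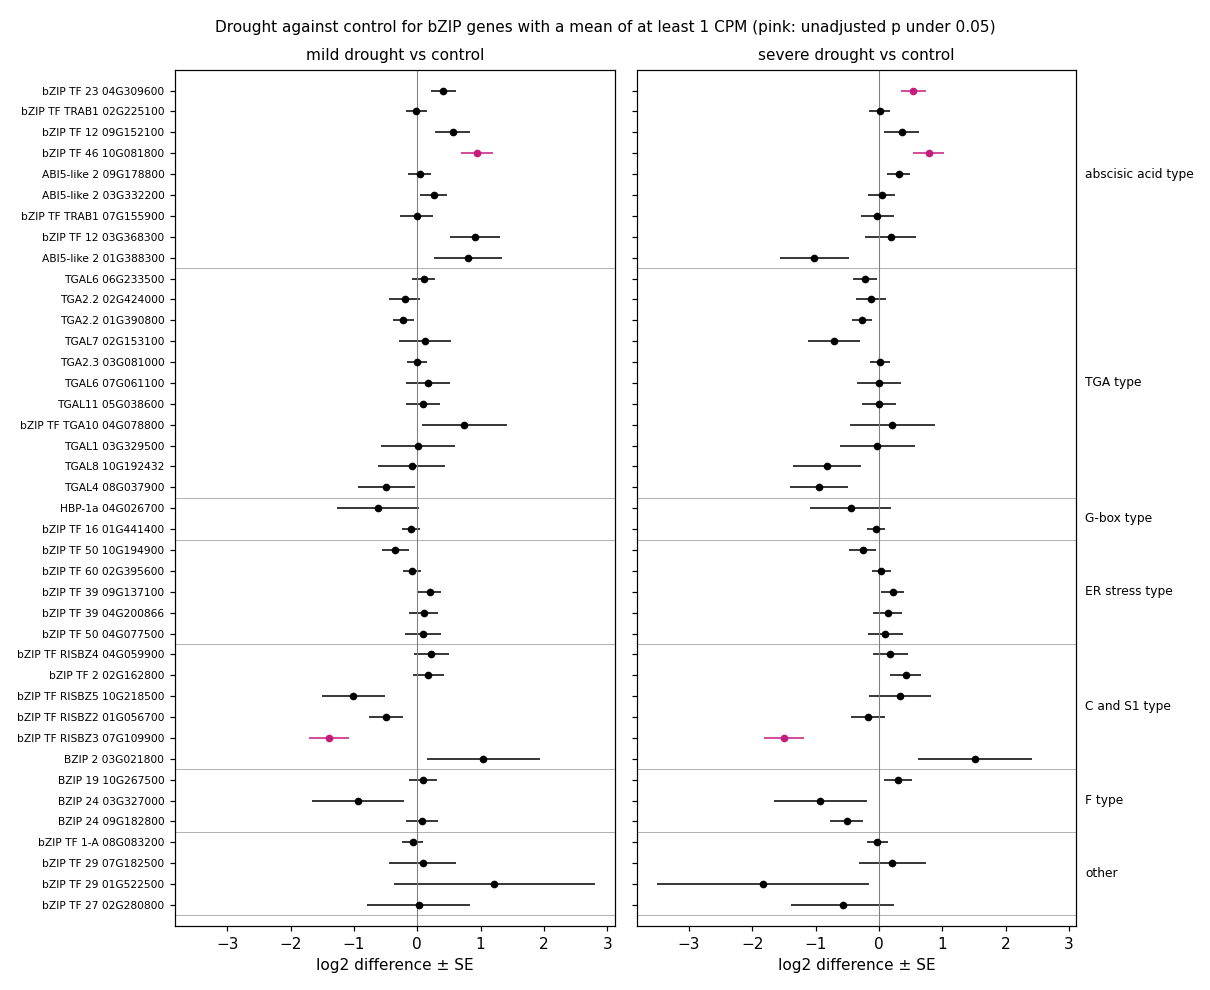
Log2 differences ± SE from edgeR in mild (left) and severe (right) drought against control for the 40 bZIP genes with a mean of at least 1 CPM, grouped by type, on the same axis. Pink marks an unadjusted p under 0.05, which RISBZ3 (lower) and bZIP46 (higher) had in both panels and bZIP23 (higher) in severe drought; no gene had an adjusted p under 0.05.

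Of the 10 tested genes of the abscisic acid type, 8 lay above 0 in mild drought (median 0.49) and 8 in severe drought (median 0.25), but on the FPKM scale in severe drought 4 of 9 lay above 0 and 6 of 9 above the shift of all genes. Beside this, 52.3% of all genes lay above 0 in mild and 48% in severe drought. bZIP46 (SORBI_3010G081800, chromosome 10, 6998322 to 7004279) is named for a rice activator of abscisic acid signalling. Its control libraries had 9.93, 7.94 and 9.69 CPM, the mild drought libraries 12.2, 21.6 and 19.1, and the severe drought libraries 13.3, 17.1 and 17.1. All 6 drought libraries lay above all 3 controls, and the drought groups overlapped with each other. The group means were 9.19 ± 1.09, 17.7 ± 4.87 and 15.9 ± 2.20 CPM, differences of 0.94 ± 0.25 in mild drought and 0.79 ± 0.25 in severe drought. For both droughts the difference was 0.86 ± 0.22, or 1.82-fold (edgeR adjusted p = 0.305). In DESeq2 its adjusted p was 0.0799 in mild drought, 0.171 in severe drought and 0.0324 for both.

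bZIP23 (SORBI_3004G309600, chromosome 4, 64665419 to 64669547), the sorghum gene named for a rice regulator of abscisic acid response and drought tolerance, was among the most abundant members. It had 45.9, 35.0 and 53.1 CPM in the control, 50.1, 62.1 and 65.9 in mild and 65.0, 57.0 and 72.6 in severe drought. The severe drought libraries all lay above the controls, while mild drought 1 lay below control 3. The difference was 0.41 ± 0.20 in mild and 0.54 ± 0.20 in severe drought, and 0.48 ± 0.17 for both (edgeR adjusted p = 0.798, 0.508 and 0.478). Its unadjusted p was under 0.05 in 12 of 20 alternative settings in severe drought, and without control 2, its lowest library, the difference was 0.39. The 3 limma settings on FPKM were not among the 12, and bZIP23 did not pass in them for both droughts either.

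The other abundant gene of this type, TRAB1 (SORBI_3002G225100, chromosome 2, 61692847 to 61698582), is named for a rice activator that works with a seed protein of abscisic acid signalling. It had 83.2, 78.7 and 89.7 CPM in the control, 90.0, 69.3 and 89.9 in mild and 74.9, 90.9 and 88.0 in severe drought. The 3 groups covered the same range, and the difference for both droughts was -0.00 ± 0.14. Whether genes of the type differ from each other in their response was not tested.

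The pair of genes named bZIP12, after a rice factor of abscisic acid signalling, lay higher in some drought libraries. SORBI_3009G152100 had 7.92, 7.94 and 8.28 CPM in the control, 13.2, 7.95 and 14.5 in mild and 8.23, 9.69 and 13.1 in severe drought. Mild drought 2 lay within the narrow range of the controls, and the other mild libraries above it (0.56 ± 0.28, edgeR adjusted p = 0.810). SORBI_3003G368300 had 6.54, 7.20 and 4.18 CPM in the control, 9.17, 8.36 and 16.2 in mild and 3.77, 8.20 and 8.43 in severe drought. Here all mild drought libraries lay above the controls (0.91 ± 0.40, adjusted p = 0.775), while severe drought 1 lay below them all.

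ABSCISIC ACID-INSENSITIVE 5-like protein 2 names 3 genes, after an Arabidopsis factor close to ABI5. SORBI_3001G388300 (chromosome 1, 67536978 to 67540503) had 0.848, 1.49 and 2.19 CPM in the control, 3.06, 3.42 and 1.44 in mild and 1.02, 0.652 and 0.542 in severe drought. All severe drought libraries lay below all mild drought libraries (-1.83 ± 0.56, edgeR adjusted p = 0.996). Of its counts, 25% belonged to lncRNA transcripts at the same locus, and without them the difference was -1.56. SORBI_3009G178800, with 10.6 ± 0.669, 10.9 ± 0.537 and 13.1 ± 1.62 CPM in the 3 groups, had severe drought libraries above all others (0.31 ± 0.18 against control, adjusted p = 0.683).

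**Figure D3:**
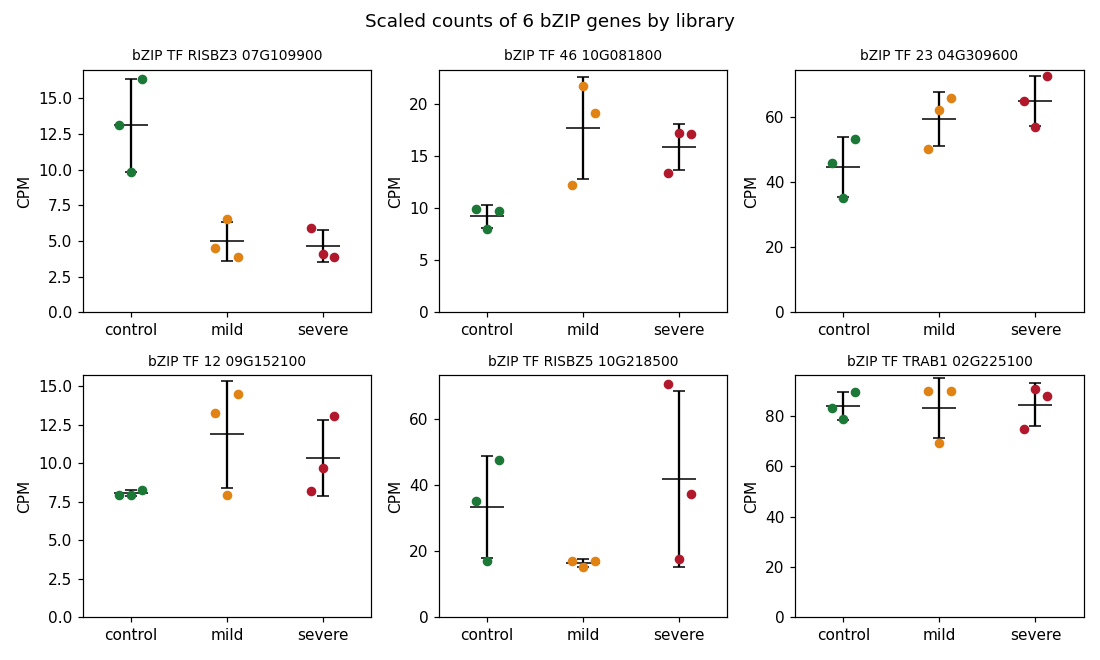
CPM of 6 bZIP genes in each library (points) with mean and SD (n = 3) per group, each panel on its own axis from 0. RISBZ3 was lower and bZIP46 higher in all 6 drought libraries than in all 3 controls, bZIP23 and bZIP12 overlapped in part, RISBZ5 was widely spread in control and severe drought, and TRAB1 covered the same range in all groups.

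Among the 6 genes of the C and S1 types, all tested, RISBZ3 was lower in drought and the abundant RISBZ4 showed no such difference. The rice RISBZ proteins are relatives of maize Opaque2, the activator of seed storage protein genes. RISBZ3 (SORBI_3007G109900, chromosome 7, 39760648 to 39762978) had 13.1, 9.84 and 16.4 CPM in the control libraries. It had 4.48, 6.54 and 3.88 CPM in mild drought and 5.91, 4.10 and 3.89 in severe drought. Every drought library lay below every control library, and the drought groups overlapped. The group means of 13.1 ± 3.27, 4.96 ± 1.39 and 4.64 ± 1.11 CPM correspond to differences of -1.40 ± 0.31 and -1.50 ± 0.32, a 2.64-fold and a 2.82-fold lower level. For both droughts the difference was -1.45 ± 0.26 (edgeR adjusted p = 0.198). In DESeq2 the adjusted p was 0.0120 in mild drought, 0.00331 in severe drought and 0.000306 for both. Its p was under 0.05 in all 20 alternative settings in each of these comparisons, and without the 4 libraries that stood apart the difference for both droughts was -1.50.

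RISBZ4, the most abundant member by mean FPKM, had 38.7, 41.9 and 64.8 CPM in the control, 41.2, 76.5 and 51.5 in mild and 62.2, 48.3 and 54.3 in severe drought. The groups overlapped throughout (0.20 ± 0.24 for both droughts). RISBZ5 (SORBI_3010G218500, chromosome 10, 56122217 to 56126053) had 35.2, 16.9 and 47.5 CPM in the control and 70.5, 17.7 and 37.3 in severe drought, a wide spread in both. In mild drought it had 17.2, 15.1 and 17.1 CPM, and the highest of these lay just below the lowest severe drought library. Severe against mild drought gave 1.35 ± 0.50 (edgeR adjusted p = 0.996). RISBZ2 (SORBI_3001G056700) had 15.8 ± 4.82, 11.2 ± 1.96 and 14 ± 2.41 CPM in the 3 groups.

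bZIP transcription factor 2 (SORBI_3002G162800) is named for an Arabidopsis S1 type factor, a group controlled by sucrose at translation. It had 27.8, 31.7 and 32.1 CPM in the control, 24.8, 38.0 and 40.9 in mild and 35.7, 33.5 and 53.7 in severe drought. The severe drought libraries lay above the controls (0.42 ± 0.25, edgeR adjusted p = 0.685). At this locus lncRNA transcripts held 16.7% of the counts. The separate gene named Basic leucine zipper 2, after a rice protein (SORBI_3003G021800), had 0.238, 0.642 and 4.36 CPM in the control, with control 3 far above the others, and 4.32 ± 1.61 CPM over 6 drought libraries (adjusted p = 0.722 for both).

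The TGA type had 16 tested genes, of which 10 lay above 0 in mild drought (median 0.05) and 5 in severe drought (median -0.17); on the FPKM scale in severe drought 0 of 8 lay above 0 and 2 of 8 above the shift of all genes. None had an unadjusted p under 0.05 against the control in either drought in edgeR with all libraries. Over 20 alternative settings, 8 passed this in at least 1 setting in severe drought and 2 in mild drought. In severe drought TGAL6 and TGA2.2 passed in the 3 limma settings on FPKM, TGAL3, TGAL4 and TGAL5 in DESeq2 and other settings, and TGAL7, TGA2.3 and TGAL10 only where libraries were left out. The TGA2.3 gene meant here is SORBI_3002G394550, which had only 145 counts over all libraries. The more abundant gene named TGA2.3 (SORBI_3003G081000) passed in 0 of 20 settings in severe drought. The limma differences of TGAL6 (-0.50 to -0.48) and TGA2.2 (-0.56 to -0.52) include the shift of all genes on that scale. In mild drought these were TGAL10 in 3 settings and TGAL3 in 2. TGAL6 (SORBI_3006G233500), the most abundant of the type, had 124, 127 and 137 CPM in the control, 167, 109 and 140.2 in mild and 104, 121 and 108 in severe drought. Its severe drought libraries lay below the controls by a small margin (-0.22 ± 0.18, adjusted p = 0.805). TGA2.2 (SORBI_3001G390800), named for a rice partner of the defence protein NPR1, had 55.8, 68.2 and 55.4 CPM in the control, 49.1, 45.4 and 59.6 in mild and 46.8, 50.9 and 50.9 in severe drought. It too was lower in all severe drought libraries than in the controls (-0.27 ± 0.16, adjusted p = 0.687).

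Some less abundant TGA type genes had larger differences with larger errors. TGAL7 (SORBI_3002G153100) had 22.8, 14.4 and 30.8 CPM in the control, 21.1, 35.9 and 17.1 in mild and 20.5, 12.1 and 9.02 in severe drought, with overlap between all groups. TGAL4 (SORBI_3008G037900) had 2.57, 2.54 and 2.74 CPM in the control, which lay above all 6 drought libraries, with 2.33, 2.13 and 1.12 in mild and 1.90, 1.3 and 0.838 in severe drought (-0.72 ± 0.38 for both, adjusted p = 0.648). TGAL5 (SORBI_3009G155050) had 0.530, 0.270 and 0.131 CPM in the control, 0.567, 0.231 and 0.320 in mild and 0.544, 0.978 and 1.58 in severe drought. Its severe drought libraries lay above the controls (1.72 ± 0.79, adjusted p = 0.595). TGAL5 passed the filter on low counts only with the severe drought libraries, where it was high, so its tests of severe drought are no support.

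TGAL3 (SORBI_3010G110100, chromosome 10, 11004657 to 11007712) had no count in any severe drought library. It had 105 counts in mild drought, of which 72 were in mild drought 3, and 33 in the control, of which 32 were in control 2. The control libraries had 0.0265, 1.08 and 0 CPM and the mild drought libraries 0.504, 0.393 and 2.88. A floor of 3 counts was set for the severe drought group. Against it the pooled level was 24.9-fold higher in mild drought and 7.41-fold higher in the control. The floor covers only the counting error of the severe drought group, so these ratios are not strict lower limits. Without mild drought 3 the ratio for mild drought was 10.4-fold. Without control 2 the control held 1 count and lay under the floor, so no ratio is left. Against the control, the edgeR adjusted p was 0.965 in mild and 0.591 in severe drought. The edgeR adjusted p of severe against mild drought was 0.996. TGAL3 passed the filter on low counts only with the mild drought libraries, where it was high, so its tests against mild drought are no support.

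The 5 ER stress genes had small differences, with medians of 0.09 in mild and 0.10 in severe drought; on the FPKM scale in severe drought 0 of 5 lay above 0 and 3 of 5 above the shift of all genes. bZIP50 in rice is known for an mRNA that the ER sensor IRE1 splices, and bZIP39 and bZIP60 are known from the same response. bZIP50 (SORBI_3010G194900, chromosome 10, 53796883 to 53799591) had 37.2, 27 and 23.5 CPM in the control, 23.7, 20.7 and 24.6 in mild and 23.5, 28.8 and 21.2 in severe drought. Control 1 was the highest library and the other values lay close together (-0.30 ± 0.18 for both droughts, adjusted p = 0.708). Gene counts do not show splicing by IRE1. bZIP60 (SORBI_3002G395600) had 39.2 ± 4.49, 37 ± 3.42 and 40.2 ± 1.86 CPM in the 3 groups, with a within-group SD of 0.13 on the log2 scale.

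The remaining types were small. In the G-box type, HBP-1a (SORBI_3004G026700), named for a wheat protein that binds histone gene promoters, had 27.3, 20.4 and 90.8 CPM in the control, 14.2, 52.9 and 22.9 in mild and 48.3, 29.3 and 24.3 in severe drought. Control 3 and mild drought 2 were far above the other libraries of their groups. bZIP16 (SORBI_3001G441400) was steady in comparison, with 52.7 ± 1.50, 49 ± 6.37 and 50.9 ± 3.30 CPM.

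In the F type, BZIP19 (SORBI_3010G267500) is named for an Arabidopsis factor of the response to zinc deficiency. It had 42.1, 51.2 and 56.7 CPM in the control, 38.6, 67.5 and 53.4 in mild and 61.2, 59.3 and 64.2 in severe drought. Severe drought lay above the controls and within the range of mild drought (0.30 ± 0.21 against control, edgeR adjusted p = 0.755). BZIP24 names a pair of genes, after an Arabidopsis factor of the salt response. SORBI_3009G182800 had 9.14, 13.7 and 9.17 CPM in the control, 12.9, 11.9 and 8.96 in mild and 6.83, 6.66 and 8.97 in severe drought, the last below all controls (-0.51 ± 0.26, adjusted p = 0.632). SORBI_3003G327000 had 27.9 ± 7.95 CPM in the control and 14.6 ± 4.54 in severe drought, and its lowest value was 1.71 in mild drought 2. Among the others, bZIP 1-A (SORBI_3008G083200), named for a wheat protein, had 42.5, 34 and 42.7 CPM in the control, 42.2, 37.9 and 33.5 in mild and 38.6, 43.3 and 35.0 in severe drought, with full overlap.

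Groups that did not overlap were counted over all members. In severe drought against control this held for 12 of 48 members (25%, against 17.5% of all tested genes). Of these, 6 were higher (12.5%, against 7.64%) and 6 lower (12.5%, against 9.82%). In mild drought it held for 4 (8.33%, against 12.6%), in severe against mild drought for 4 (8.33%, against 7.83%), and for both droughts against control for 3 (6.25%, against 5.62%), namely RISBZ3, bZIP46 and TGAL4. The 12 include TGAL5, and the 4 in severe against mild drought include TGAL3. Each passed the filter on low counts only with the group where it was high, so neither is support here. These shares carry no test.

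**Figure D4:**
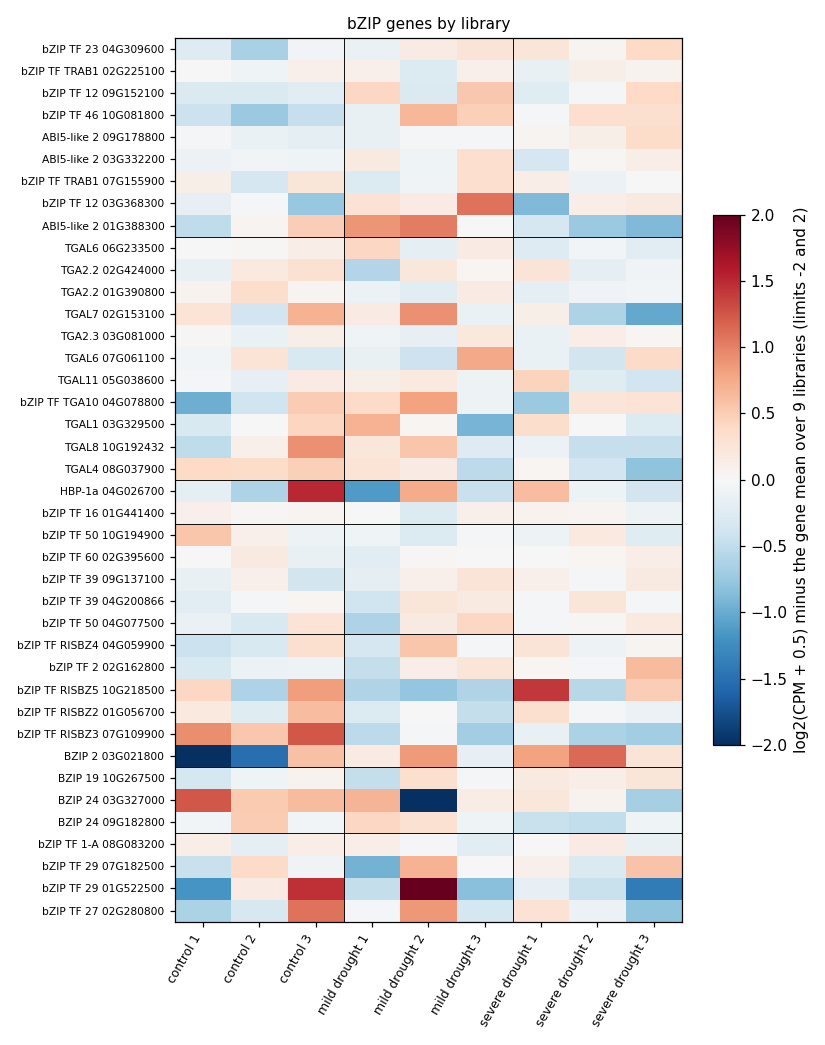
Each cell is the log2 of CPM + 0.5 in a library minus the gene's mean over the 9 libraries, for the 40 bZIP genes with a mean of at least 1 CPM; the colour scale ends at -2 and 2. The row of RISBZ3 is red in the 3 controls and blue or near white in drought, that of bZIP46 blue in the controls; several rows have their extreme in a single library, such as BZIP24 SORBI_3003G327000 in mild drought 2.

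Single libraries weighed on many members. Mild drought 3 was the highest library for 12 of the 48 members (25%, beside 8.47% of all tested genes), and mild drought 2 for 11 (22.9%, beside 20.1%). Control 3 was the highest for 8 (16.7%, beside 11.1%). The part of these libraries in the differences beyond the settings named was not tested. The 11 members that were not tested had 7 to 76 counts over all libraries and at most 36 in 1 library. They were counted in 10 of 11 cases in control 2 and in 8 of 11 in mild drought 2, the libraries with the most genes detected. Among them were a pair of TRAB1 genes (SORBI_3008G043900 and SORBI_3006G190800), 3 TGA type genes and 3 genes named bZIP29.

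Other genes of the pathways were counted from lists of names. Type 2C phosphatases of the clade that holds back abscisic acid signalling were listed by name and number, so the clade of each is uncertain. Of 13 tested, 7 were higher and 0 lower at an unadjusted p under 0.05 for both droughts against control (edgeR). Their median log2 difference was 0.93, beside -0.00 over all genes. Over all tested genes 8.75% passed this threshold in either direction, which is the share to set beside each count that follows. Of 5 tested receptors 0 were higher and 2 lower, and of 12 SnRK2 kinases 1 was higher and 0 lower, near the share of all genes. Of 4 tested Ninja family proteins, whose relatives bind ABI5, 2 were higher and 0 lower, but 1 of 3 was higher and 1 lower on the FPKM scale. List counts on the FPKM scale, here and below, include the shift of all genes, -0.11 for both droughts (log2 of FPKM + 1). Ninja-family protein 5 (SORBI_3002G367100) had 65.1 ± 18.9 CPM in the control, 145 ± 33.5 in mild and 135 ± 9.72 in severe drought (1.11 ± 0.22, edgeR adjusted p = 0.215, DESeq2 adjusted p = 0.000754). Of 5 tested abscisic acid response proteins, out of 16 in the list, 3 were higher and 0 lower. On the FPKM scale 2 of 4 were higher and 0 lower. A gene near 0 in the control passed the filter on low counts only with drought libraries where it was high. Late embryogenesis abundant protein D-34 (SORBI_3004G142500) had 0.277 ± 0.269 CPM in the control, 1.45 ± 0.689 in mild and 1.42 ± 0.289 in severe drought. The counts of this list are therefore no support. No gene of any of these lists had an adjusted p under 0.05 in edgeR.

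Partners of the other types were counted in the same way. Of 6 NPR type cofactors of TGA factors, 0 were higher and 0 lower, with 1 of 3 lower on the FPKM scale. NPR3 (SORBI_3001G143000) had 56.9 ± 22.2, 40.8 ± 32.9 and 29.4 ± 11.3 CPM in control, mild and severe drought. Of 20 tested ER stress genes 1 was higher, protein disulfide isomerase-like 2-3 (SORBI_3002G222200, 0.54 ± 0.19), and 1 lower, calreticulin-3 (SORBI_3009G190500, -0.56 ± 0.20); both help proteins fold in the ER, and on the FPKM scale 0 of 19 were higher and 2 lower. Of 14 tested bZIP-type factors with names outside the rule 1 was higher, RF2a (SORBI_3002G264100, 0.40 ± 0.16), and 0 lower, with 0 of 13 higher on the FPKM scale. By domain, 35 genes outside the rule had a bZIP Pfam entry, and of the 28 tested 5 had an unadjusted p under 0.05 for both droughts (8.75% of all genes). The count was 4 in mild drought (6.4% of all genes), 2 in severe drought (8.67%) and 1 in severe against mild drought (3.69%).

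Reads of other transcripts touch some members. lncRNA transcripts were annotated at 7 member genes. In bZIP transcription factor 2 the transcript TCONS_00032064, in the submitters' class AS, held 12.8% of the gene's counts, with 266, 68 and 21 counts in the control, 308, 53 and 194 in mild and 21, 150 and 136 in severe drought. It varied within each group and overlapped between them. The sources used here do not say whether counting used the strand, so reads of such partners may be counted in the gene. Gene models of TGAL11 (SORBI_3005G038600) and an untested TGAL4 (SORBI_3005G038700) overlapped by 2870 bases, and bZIP39 (SORBI_3004G200866) overlapped a pair of flavonoid 3'-monooxygenase genes. RISBZ3, bZIP46 and bZIP23 overlapped no other gene model of the table and had no lncRNA transcript.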

How the data were processed

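Leaves at 3 levels of water supply were measured with 3 libraries each; the group and number of each came from its title. The authors deposited whole-number read counts for genes and for lncRNA transcripts, per the file headers, and FPKM values of genes, which are relative to length and sequencing depth. The submitters' processing notes name StringTie 1.3.3b, HISAT2 2.0.4 and STAR, without a role. A genome build was not given in these sources. Positions are those of the deposited table and cover whole gene models.

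The 34366 genes of the mRNA table entered edgeR 4.0.16 (R 4.3.3), glmQLFit and glmQLFTest: filterByExpr, which left 22080 genes, TMM factors of 0.807 to 1.12, all 9 libraries in a model with 3 groups and no covariate, and Benjamini-Hochberg adjustment over all tested genes, called at an adjusted p under 0.05. The common biological coefficient of variation was 0.503. Counting error adds to it in members with few counts, such as Basic leucine zipper 43 with 2 to 17 per library. The comparisons were mild and severe drought against control, severe against mild drought, and the mean of both droughts against control. CPM are per effective library size. Alternatives were DESeq2 1.42.0, limma 3.58.1 on log2(FPKM + 1) or log2(FPKM + 0.1) with a minimum of 1 FPKM in 3 libraries, RLE factors, no filter, the groups compared alone, the replicate number as a block, subtraction of lncRNA counts, and leaving out libraries. The edgeR procedure was also run on simulated independent counts with 200 changed genes. That simulation lacks the separation of libraries seen in these data, and its outcome is not used as support here.

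Values in all libraries are given for the 6 members with the smallest p in each comparison and the most abundant of each type; further members and up to 2 genes per list are examples, and some members were added after their values were seen because their groups did not overlap or for contrast. Types were set by Swiss-Prot name and number, not by descent, and numbers of rice and Arabidopsis proteins were treated alike. The type of single genes is therefore uncertain. By this rule bZIP 1-A and an untested ABI5 homolog fell among the others. The members and the lists were chosen with earlier results of these data known. Promoter, protein and other sequences were not used here, and the planned search for promoter motifs was not run. A gene that the selection rule leaves out is not reported here.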

Additional observations from a re-analysis of the deposited data

Results flagged for a closer look

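TGAL3 (SORBI_3010G110100) lay on opposite sides of the control mean in the drought groups: each mild drought library lay above the control mean and each severe drought library, with no count, below it. Neither difference from the control passed in edgeR (adjusted p = 0.965 in mild and 0.591 in severe drought), and both drought groups overlapped the controls, of which control 3 also had no count. Against a floor of 3 counts for severe drought, its pooled level in mild drought was 24.9-fold higher, and 10.4-fold without mild drought 3. Counting error in mild drought is not included, so these ratios are not strict lower limits. Of its 105 counts in mild drought, 72 were in mild drought 3, and control 2 had more CPM (1.08) than mild drought 1 and 2 (0.504 and 0.393). The edgeR test of severe against mild drought gave an adjusted p of 0.996 and an unadjusted p of 0.0233. The gene passed the filter on low counts only with the mild drought libraries, where it was high, so this p is no support. Without mild drought 3 the unadjusted p was no longer under 0.05.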

How the results depend on the processing

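Counts are given in the order mild against control, severe against control, severe against mild, and both droughts against control. Genes called were 0, 0, 0 and 0 in edgeR with all libraries, and 194, 314, 16 and 379 in DESeq2. They were 0, 2, 0 and 0 with only the groups compared in the fit, 2, 0, 0 and 6 by limma on log2(FPKM + 1), and 2, 0, 0 and 2 on log2(FPKM + 0.1). Without libraries 1 and 2 of severe drought, 2 of mild drought and 3 of the control, an alternative chosen after seeing the data, they were 41, 86, 3 and 155; severe drought then has 1 library, which is assumed to vary like the other groups. bZIP members called were 1, 1, 0 and 2 in DESeq2 and 0 under every other setting run.

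bZIP members at an unadjusted p under 0.05 were 2, 3, 3 and 3 in edgeR with all libraries. They were 4, 4, 3 and 3 with only the groups compared, 3, 4, 3 and 4 without the filter on low counts, and 3, 6, 5 and 3 in DESeq2. By limma they were 4, 5, 7 and 5 on log2(FPKM + 1), 4, 7, 7 and 5 on log2(FPKM + 0.1), and 5, 7, 10 and 5 on log2(FPKM + 1) with no filter. Without the 4 libraries they were 6, 10, 4 and 8. Without control 2 and mild drought 2, also chosen after seeing the data, they were 6, 4, 4 and 5. RLE factors and subtraction of lncRNA counts left 2, 3, 3 and 3. Leaving out each library in turn gave 0 to 1, 0 to 1, 0 to 0 and 0 to 1 genes called, 0 to 0 members called in each comparison, and 2 to 5, 2 to 5, 2 to 4 and 2 to 5 members at an unadjusted p under 0.05. The cause of these differences was not tested.

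With the replicate number as a block, 0 genes and 0 members were called and 2, 3, 3 and 3 members had an unadjusted p under 0.05. Same-numbered libraries of different groups correlated in their deviations from the group means at -0.37 to 0.37, above 0.1 in 3 of 9 pairs. The labels do not say whether the number pairs plants or batches. These correlations cannot decide it, because they also hold the separation of libraries on the first principal component.

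For the 24 pairs of a member and a comparison with the smallest p, 467 of 467 log2 differences under the alternatives had the same direction. TGAL3, TGAL4 and TGAL5 were missing from some settings. The pairs were chosen by p in these libraries, and every alternative reuses the same libraries, so this agreement is no independent support. RISBZ3 passed an adjusted p under 0.05 only in DESeq2, in 3 comparisons, and bZIP46 only there for both droughts. Across the alternatives the difference of RISBZ3 for both droughts ranged from -1.74 to -1.24 (adjusted p 0.000306 to 0.827), and that of bZIP46 from 0.55 to 0.97 (0.0324 to 0.897). An unadjusted p under 0.05 for bZIP46 held in 19 of 20 alternatives in mild and 17 of 20 in severe drought. The setting that failed in mild drought left out control 2 and mild drought 2. These were the lowest and the highest library of bZIP46 (7.94 and 21.6 CPM). The 3 settings that failed in severe drought were the limma settings on FPKM, the scale on which all genes were shifted.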
